A study of Mus musculus with 8 samples.

Results

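The gene set described here is 40 interferon-stimulated genes, taken from a list of gene names drawn up with earlier results of these data known, though by no threshold on a value, out of 34547 genes with at least 1 transcript in the deposited files. All 40 were matched by symbol, and all 40 passed the filter on low counts that left 13678 genes for testing. RNA was sequenced from the livers of 8 C57BL/6J mice, for which no further allele is named. At 8 weeks of age each mouse had received 2.5e+11 particles of an adeno-associated virus (AAV, a small vector virus that delivers a gene to liver cells) through the tail vein. In 4 mice the virus carried mouse Nudt7, a coenzyme A diphosphohydrolase of the peroxisome and so a protein the mouse already makes, and in the other 4 it carried GFP, a jellyfish fluorescent protein that is foreign to it. Livers were taken 3 to 4 weeks after injection, at 11 to 12 weeks of age, and all 8 mice had been fasted for 24 h. Every mouse had been injected with AAV, so the values compare a self with a foreign transgene, and none of them measures the response to AAV itself. The groups also differ in the level of Nudt7, so an effect of that enzyme cannot be told apart from one of self against foreign. The labels name neither the serotype nor the promoter that drove the transgenes, are silent on sex, batches, pairing and whether the mice were littermates.

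Interferons are secreted proteins by which infected or alarmed cells warn their neighbours. Sensors of foreign nucleic acid switch on type I interferon genes, the interferon binds its receptor on the same or nearby cells, and the kinases JAK1 and TYK2 then activate STAT2, which joins IRF9 in a complex that binds the interferon-stimulated response element (ISRE) in the promoters of its target genes. Interferon gamma acts at another element, the gamma-activated site (GAS), and drives above all antigen presentation genes and the GTPases that attack intracellular parasites. In the liver, vector DNA can be sensed by endosomal TLR9 in immune cells and by cytosolic sensors, and hepatocytes respond to the interferon made.

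The element that gives the set its name could be seen in the promoters. RefSeq promoter windows (GRCm38.p6, from 250 bases before to 50 bases after the start of transcription) were matched for 29 of the 40 genes; Parp9, Zbp1, Iigp1, Dhx58, Ifi27, Oas2, Rtp4, Mx2, Usp18, Parp14 and Mx1 had no entry. The ISRE core was searched as GAAANNGAAA on both strands. It was found in 18 of the 29 genes (62.1%), against 3.99% of the 27025 genes with a window. Where a gene had several windows, a match in any of them counted. A GAS, searched as TTCNNNGAA, which reads the same on both strands, was found in 8 of the 29 (27.6%), against 9.55% of genes. These are matches of letters and not measured binding. The stretches below show 9 of the genes described further on, each read 5′ to 3′ on the strand of its gene, with ISRE matches in capitals; a match on the opposite strand reads TTTCNNTTTC.
Isg15: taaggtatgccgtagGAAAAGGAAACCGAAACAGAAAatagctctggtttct
Ifit1: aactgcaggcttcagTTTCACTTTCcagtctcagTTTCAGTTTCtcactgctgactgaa
Ifit3: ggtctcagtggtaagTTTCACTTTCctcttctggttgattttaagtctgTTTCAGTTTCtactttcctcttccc
Bst2: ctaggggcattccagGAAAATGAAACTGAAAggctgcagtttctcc
Oas1a: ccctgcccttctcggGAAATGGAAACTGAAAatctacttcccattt
Oas1g: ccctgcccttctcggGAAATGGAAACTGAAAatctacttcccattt
Irgm1: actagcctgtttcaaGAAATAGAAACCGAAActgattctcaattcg
Gbp3: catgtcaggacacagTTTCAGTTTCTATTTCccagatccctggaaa
Cxcl10: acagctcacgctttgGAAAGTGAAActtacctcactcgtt
Isg15 (chr4:156200860-156200911, minus strand) held 3 overlapping matches in a run of 22 bases, and Ifit1 (chr19:34640770-34640828, plus strand) and Ifit3 (chr19:34583358-34583431, plus strand) each held 2 separate ones on the opposite strand. In Bst2 (chr8:71537572-71537617, minus strand) the 2 ISRE matches overlapped each other, and a GAS match just upstream shared 3 bases with the first. The stretches of Oas1a (chr5:120907515-120907560, minus strand) and Oas1g (chr5:120887601-120887646, minus strand), a pair of neighbouring copies, were the same letter for letter. Irgm1 (chr11:48871420-48871465, minus strand), Gbp3 (chr3:142559984-142560029, plus strand) and Cxcl10 (chr5:92349078-92349117, minus strand) are shown because their values, described below, lay on different sides of 0. The median log2 fold change was 0.17 over the 18 genes with an ISRE match, 12 of which were above 0. It was 0.16 over the 11 genes with a window but without such a match, 9 of which were above 0.

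Depth ran from 11187806 to 23640734 estimated reads a liver, with GFP replicate 4 the deepest, and Nudt7 itself, the check on the labels, averaged 2006 ± 1050 CPM (counts scaled to library size; SD, n = 4) in the Nudt7 livers against 72.3 ± 8.26 in the GFP livers (edgeR adjusted p = 0.000122). Nudt7 replicate 3 stood apart from the other libraries. It held the highest value of the 8 livers for 28.3% and the lowest for 27.9% of the genes tested, and its deviations followed transcript length, from 0.54 on the log2 scale at 500 bases to -0.58 at 8000 bases. Among the 40 interferon response genes, 9 of 11 with transcripts under 1500 bases were above their own mean in that liver and 4 of 11 with transcripts of at least 3000 bases. The Spearman correlation of deviation with length over the 40 genes, which are not independent replicates, was -0.58 there and 0.04 to 0.32 in the other 7 livers. Leaving this library out turned the fold change or moved it by over 1.5 times for 20 of the 40 genes, and for these the value without it is given below.

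**Figure D1:**
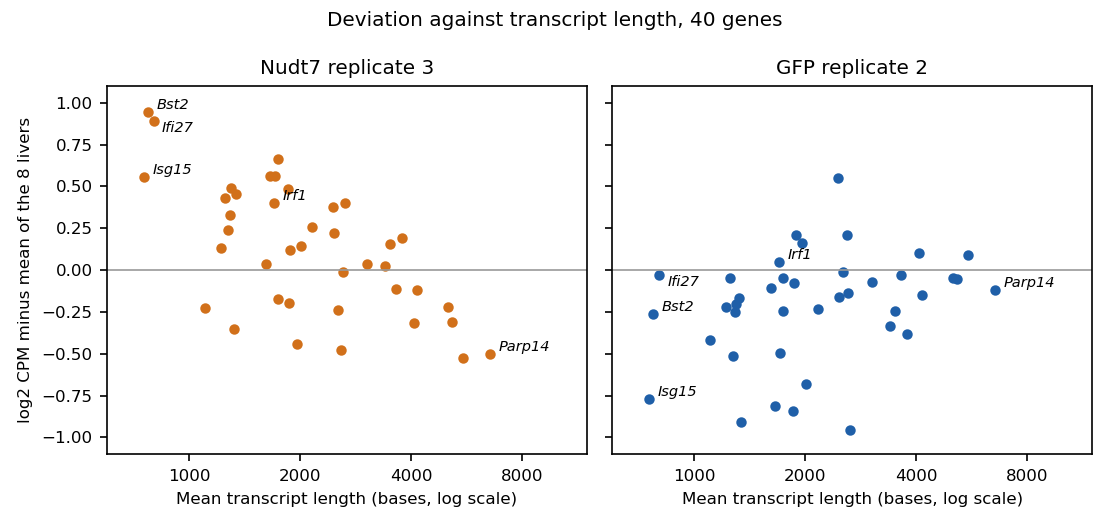
Deviation of each of the 40 genes from its mean over the 8 livers (log2 CPM, vertical) against its mean transcript length in bases (horizontal, log scale), for Nudt7 replicate 3 and GFP replicate 2; each point is 1 gene. In Nudt7 replicate 3 the short genes Bst2, Ifi27 and Isg15 lie above 0 and the long gene Parp14 below it, while in GFP replicate 2 most genes of every length lie below 0.

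Every gene of the set was detected in each of the 8 livers, at levels that spanned from under 1 to near 100 TPM (a level scaled to transcript length and library size). Mean TPM over the 8 livers was at least 1 for 33 genes, at least 10 for 13 and at least 50 for 3. At the top stood Ifi27 (96.1 TPM), a small membrane protein of mitochondria and nucleus, Bst2 (79.2 TPM), the tetherin that holds budding virions on the cell surface, and Iigp1 (78.1 TPM), a GTPase that disrupts parasite vacuoles. Trim25 (40.6 TPM) and Stat2 (38.6 TPM) followed. The genes most often used as interferon markers were low, with Isg15 at 5.35 TPM, Ifit3 at 2.55 TPM and Ifit1 at 2.27 TPM, and the last places were held by Gbp2 (0.849 TPM), Oas3 (0.695 TPM) and Oas2 (0.653 TPM). Counts per gene and liver ran from 6 to 3950, and 8 genes averaged under 30 counts, which limits the precision of their fold changes. The ratio of the highest to the lowest liver had a median of 1.79 over the 40 genes, from 1.20 for Iigp1 to 6.48 for Cxcl10.

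**Figure D2:**
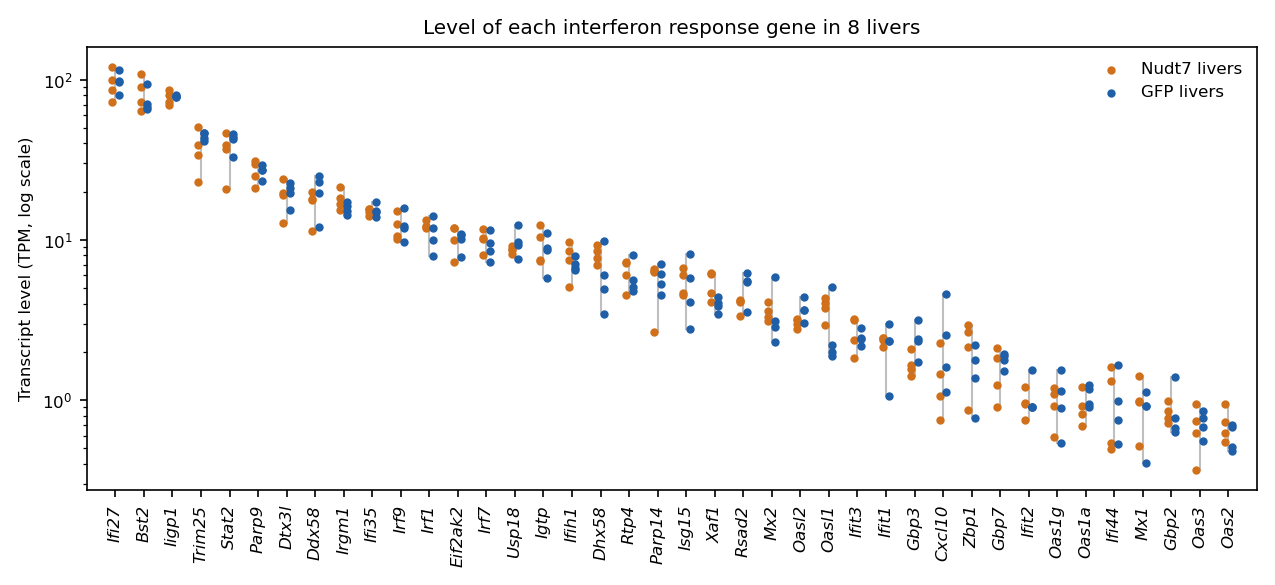
Level of each of the 40 genes in TPM (vertical, log scale), ordered by mean over the 8 livers; each point is 1 liver, orange for Nudt7 and blue for GFP, and the grey line joins the lowest and highest liver. Ifi27, Bst2 and Iigp1 lie highest and Oas2 lowest, and the colours overlap for every gene on this scale.

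No interferon response gene differed between the transgenes at an adjusted p under 0.05. edgeR's quasi-likelihood test with Benjamini-Hochberg adjustment called 0 of the 40, with a lowest adjusted p of 0.366, against 16 of the 13678 genes tested (0.117%; 0.0439% higher and 0.0731% lower in the Nudt7 livers). DESeq2, which gave Oas1g no adjusted p, also called 0, as did limma-voom with and without sample weights. At an unadjusted p under 0.05 there were 4 genes (10.0%), against 8.28% of all genes tested; all 4, Oasl1, Dhx58, Irgm1 and Xaf1, had the higher mean in the Nudt7 livers, a direction that held 4.25% of all genes, with 4.03% in the other. The same threshold gave 3 genes above and 0 below in DESeq2, 4 and 1 in limma-voom, and 5 and 0 with sample weights; without GFP replicate 2 edgeR gave 2 above and 1 below. In 3 genes (7.5%) the CPM values of the groups did not overlap, against 5.75% of all genes: Oasl1 and Xaf1 with every Nudt7 liver above (2.74% of all genes) and Gbp3 with every GFP liver above (3% of all genes). On the TPM scale the groups overlapped in all 40. These shares lie near the background of the whole table.

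The fitted fold changes leaned to the Nudt7 side, and no test of this lean was run. The log2 fold change, Nudt7 minus GFP, was above 0 for 31 of the 40 (77.5%) and below 0 for 9, against 49.8% above and 50.2% below 0 over all genes tested, and its median was 0.16 against -0.00089. A median over genes that move together in single livers carries no test here, and it went down to 0.080, with 28 genes above 0, when GFP replicate 2 was left out. Direction also depended on the scale. By mean TPM, which is not TMM-scaled, several genes above 0 by counts were lower in the Nudt7 livers. Among them were Ddx58, Irf9, Usp18, Parp9, Parp14, Dtx3l, Ifi27, Ifi35, Gbp2 and Iigp1, while others, such as Oasl1 and Dhx58, stayed higher. These TPM are summed over all transcripts of a gene. In mean TPM of coding transcripts alone, Ddx58, Irf9, Ifi27, Ifi35 and Gbp2 were higher in the Nudt7 livers. Usp18, Parp9, Parp14, Dtx3l and Iigp1 were lower there on that scale too. The 95% interval of the fold change lay within a change of 1 log2 unit in either direction for 34 genes. It reached past 1 for 5 genes and past -1 for 1 gene, so that a doubling or a halving was not excluded by the interval for these 6; it lay within a 1.5-fold change either way for 15 genes. The spread between livers of one group, as the SD of log2 CPM, had a median of 0.263 over the 40 genes and 0.247 over all genes tested.

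**Figure D3:**
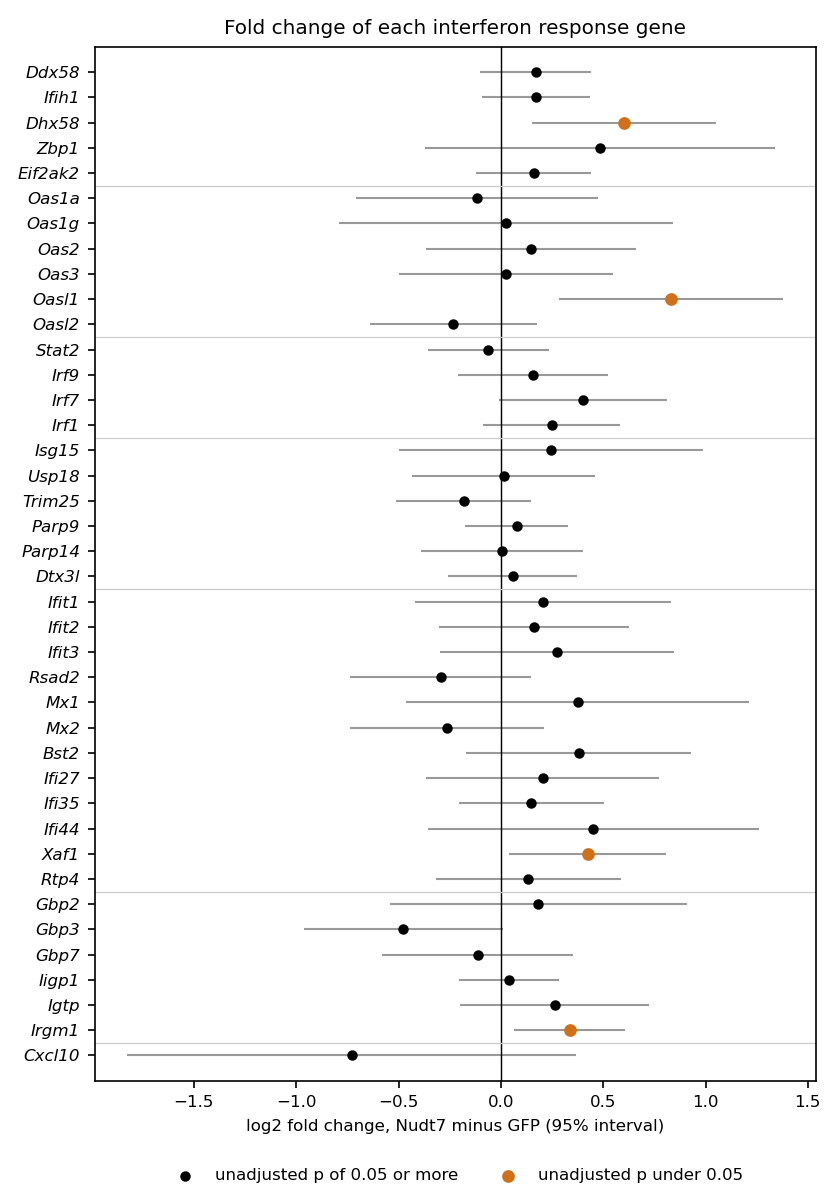
Log2 fold change of each gene, Nudt7 minus GFP (horizontal), with its 95% interval from the edgeR fit, grouped by role from top to bottom; orange points mark an unadjusted p under 0.05. The intervals of Oasl1, Dhx58, Xaf1 and Irgm1 lie above 0, those of the other 36 genes include 0, and Cxcl10 has the widest.

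Among the 5 sensors of nucleic acid, all 5 fold changes by counts were above 0, with a median of 0.17, and 0 passed the adjusted test; with the effective length offset Ddx58 was at -0.13. Dhx58 encodes LGP2, the regulator of the RNA sensors RIG-I and MDA5. Its CPM was 11.3, 8.39, 12.9 and 10.4 in Nudt7 replicates 1 to 4 and 7.06, 4.67, 8.78 and 7.82 in GFP replicates 1 to 4. Nudt7 replicate 2 fell inside the GFP range, just under GFP replicate 3, and GFP replicate 2 was the lowest of all. The log2 fold change of Dhx58 was 0.60 (SE 0.21, 95% interval 0.15 to 1.05), with an edgeR unadjusted p of 0.0129 and an adjusted p of 0.460. Ddx58, which encodes RIG-I, had the highest TPM of the sensors and read 21.6, 20.05, 21.2 and 24.8 CPM in the Nudt7 livers and 20.5, 19.1, 21.5 and 17.0 CPM in the GFP livers. Its groups overlapped, with a log2 fold change of 0.17 (95% interval -0.10 to 0.44), while its mean TPM was lower in the Nudt7 livers, 16.8 ± 3.76 against 19.9 ± 5.68 (SD, n = 4). Its coding transcripts alone summed to 4.18 ± 1.01 TPM in the Nudt7 livers against 3.55 ± 0.733 TPM in the GFP livers. Ifih1, which encodes MDA5, and Eif2ak2, the kinase PKR that stops translation on double-stranded RNA, had log2 fold changes of 0.17 and 0.16. Zbp1, a sensor of Z-form nucleic acid that triggers necroptosis, was measured less precisely, at 0.48 (95% interval -0.37 to 1.34).

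The OAS family makes the 2′-5′ oligoadenylates that switch on RNase L, and its 6 genes gave 4 fold changes above 0 and 2 below, with a median of 0.03. Oasl1, a family member without that enzyme activity that is known to restrain translation of Irf7, had the lowest p of the 40 genes. It stood at 5.47, 5.65, 6.26 and 6.19 CPM in Nudt7 replicates 1 to 4 and at 2.42, 2.19, 5.10 and 3.56 CPM in GFP replicates 1 to 4. The Nudt7 livers lay close together, at 5.89 ± 0.392 CPM (SD, n = 4), and the GFP livers were spread over a wider range below them, at 3.32 ± 1.33 CPM. This gave a log2 fold change of 0.83 (SE 0.25, 95% interval 0.28 to 1.38), or 1.78-fold, with an edgeR unadjusted p of 0.00639 and an adjusted p of 0.366. On the TPM scale GFP replicate 3, at 5.05, was above every Nudt7 liver, which ran from 2.93 to 4.34, and with an offset for effective length the log2 fold change was 0.59 at an unadjusted p of 0.0654. Oasl2, the member with the highest TPM, went the other way in value, with 3.44, 3.71, 3.38 and 3.84 CPM in the Nudt7 livers and 5.33, 3.72, 3.68 and 4.13 CPM in the GFP livers. Its groups overlapped and GFP replicate 1 was the highest (log2 fold change -0.23, 95% interval -0.64 to 0.18).

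Oas1a and Oas1g share so much sequence that reads can be split between them in different ways: 68.8% of the 31-base words of Oas1a also occur elsewhere in the transcripts, nearly all of them in Oas1g. Oas1a read 1.17, 1.59, 1.48 and 0.912 CPM in the Nudt7 livers and 1.18, 1.61, 1.42 and 1.35 CPM in the GFP livers. Oas1g read 0.781, 0.530, 1.32 and 0.847 CPM against 1.18, 0.803, 1.004 and 0.522 CPM. Neither separated the groups, and their sum had a log2 fold change of -0.08 (edgeR adjusted p = 0.936). Oas2 and Oas3, the larger enzymes of the family, had log2 fold changes of 0.15 and 0.026. Without Nudt7 replicate 3 Oas1a was at -0.18, Oas1g at -0.22 against 0.027 with it, and Oas3 at 0.15.

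Transcription factors of the response gave 3 of 4 fold changes above 0. Irf7, the factor that amplifies interferon alpha production, had the smallest p of this group, with 12.6, 15.5, 18.4 and 10.8 CPM in Nudt7 replicates 1 to 4 and 12.8, 8.54, 11.5 and 10.4 CPM in GFP replicates 1 to 4. Nudt7 replicate 3 was the highest liver, and the groups overlapped. The log2 fold change was 0.40 (95% interval -0.01 to 0.81, edgeR adjusted p = 0.5995), and 0.27 without Nudt7 replicate 3. Stat2, which carries the interferon signal into the nucleus, read 53.6, 43.9, 45.6 and 63.3 CPM against 52.5, 49.6, 57.5 and 56.0 CPM, so that the Nudt7 livers held both the lowest and the highest value (log2 fold change -0.061, 95% interval -0.36 to 0.23; 0.0058 without Nudt7 replicate 3). Irf9, the DNA-binding partner of STAT2, was at 0.16, and Irf1, a factor induced most strongly by interferon gamma, at 0.25 with Nudt7 replicate 3 the highest liver, and at 0.16 without it. Irf9 overlaps Rnf31 on the same strand, and Irf7 and Irf1 overlap other genes on the opposite strand; the strand setting of the authors' quantification is not given in the sources used here.

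The 6 genes of the ISG15 pathway and of other ubiquitin or ADP-ribose enzymes had a median log2 fold change of 0.04, with 5 above 0. Isg15, the ubiquitin-like modifier, read 2.11, 2.12, 3.87 and 3.26 CPM in the Nudt7 livers and 3.67, 1.24, 1.76 and 2.83 CPM in the GFP livers. Both groups held low and high livers, and the fold change of Isg15 was 0.24 on the log2 scale (95% interval -0.50 to 0.99), or 0.076 without Nudt7 replicate 3. Trim25, the ubiquitin ligase that activates RIG-I and joins ISG15 to proteins, had both the smallest p and the highest TPM of the group. It stood at 122, 184, 120 and 140 CPM in Nudt7 replicates 1 to 4, which spanned the whole range, and at 164, 144, 163 and 172 CPM in GFP replicates 1 to 4 (log2 fold change -0.18, 95% interval -0.51 to 0.15; -0.10 without Nudt7 replicate 3). Usp18, the protease that removes ISG15 and damps the interferon receptor, was at 0.015. Parp9 and Dtx3l, which act as a complex, were at 0.077 and 0.057, and Parp14 at 0.0044. Without Nudt7 replicate 3 Usp18 was at -0.058, Dtx3l at 0.15 and Parp14 at 0.16; the spans of Parp9 and Dtx3l overlap on opposite strands over 682 bases.

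Of the 12 antiviral effectors, 10 had fold changes above 0 and 2 below, with a median of 0.21. Xaf1, a promoter of cell death, read 3.83, 4.59, 3.95 and 4.17 CPM in the Nudt7 livers and 2.98, 2.99, 3.51 and 2.87 CPM in the GFP livers. The lowest Nudt7 liver was above the highest GFP liver, for a log2 fold change of 0.42 (SE 0.18, 95% interval 0.04 to 0.81, edgeR adjusted p = 0.561). In TPM its groups overlapped. Ifi27, the gene with the highest level in the set, stood at 36.2, 43.0, 74.9 and 25.7 CPM in Nudt7 replicates 1 to 4 and at 39.3, 39.4, 42.0 and 35.2 CPM in GFP replicates 1 to 4. The Nudt7 livers held the highest and the lowest value, and the fold change changed side with 1 library: 0.21 on the log2 scale with all 8 livers and -0.15 without Nudt7 replicate 3. Bst2 was also highest in that library, with 38.3, 31.7, 65.4 and 24.5 CPM against 28.0, 28.0, 36.0 and 30.7 CPM, and its log2 fold change of 0.38 was 0.048 without it. Rsad2, which encodes viperin, had the lowest fold change of the effectors, -0.29 (95% interval -0.73 to 0.15), with its highest CPM, 15.9, in GFP replicate 4. Ifit1, Ifit2 and Ifit3, which bind viral RNA, were at 0.21, 0.16 and 0.27. Without Nudt7 replicate 3, where Ifit3 read 5.52 CPM against 2.30 to 4.10 CPM in the other Nudt7 livers, Ifit1 was at 0.11 and Ifit3 at 0.043. Ifit3 shares 61.8% of its 31-base words with Ifit3b, and the sum of that pair also gave 0.27. The remaining effectors Mx1, Mx2, Ifi35, Ifi44 and Rtp4 lay between -0.26 and 0.45; Rtp4 overlaps Masp1 on the opposite strand. Among them, Ifi35 went from 0.15 to -0.010, Rtp4 from 0.13 to 0.049, Mx1 from 0.37 to 0.60 and Mx2 from -0.26 to -0.17 without Nudt7 replicate 3.

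**Figure D4:**
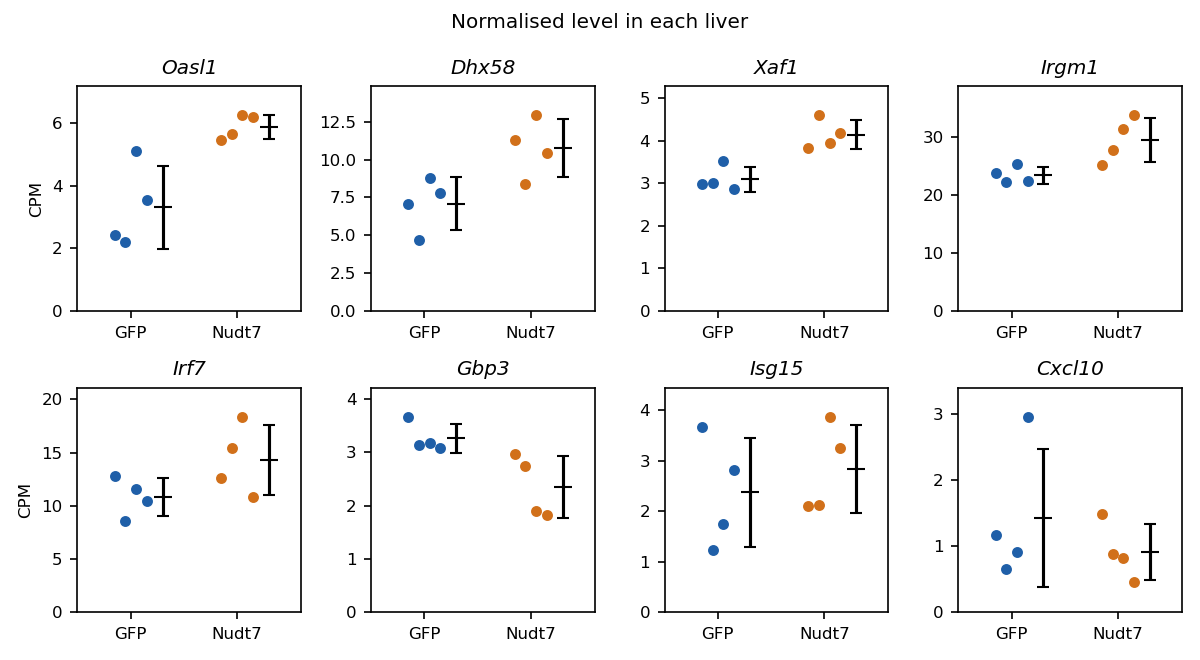
CPM in each liver (points, blue for GFP and orange for Nudt7, replicates 1 to 4 from left to right within a group) for 8 of the genes, with the group mean and 1 SD as bars beside the points; the vertical axis starts at 0. The Nudt7 points lie above all GFP points for Oasl1 and Xaf1 and below them for Gbp3, and GFP replicate 4 stands above the other livers for Cxcl10.

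GTPases of the guanylate-binding and immunity-related families, which are strongly induced by interferon gamma and attack the vacuoles of intracellular pathogens, gave 4 fold changes above 0 and 2 below. Irgm1, a regulator of the other immunity-related GTPases and of autophagy, read 25.1, 27.9, 31.5 and 33.8 CPM in the Nudt7 livers and 23.8, 22.3, 25.4 and 22.4 CPM in the GFP livers. Only Nudt7 replicate 1 fell inside the GFP range, and the log2 fold change was 0.34 (SE 0.12, 95% interval 0.06 to 0.61), with an edgeR unadjusted p of 0.0196 and an adjusted p of 0.492. Gbp3 lay in the opposite direction, with 2.97, 2.74, 1.89 and 1.82 CPM in Nudt7 replicates 1 to 4 and 3.67, 3.14, 3.18 and 3.09 CPM in GFP replicates 1 to 4. Every GFP liver was above every Nudt7 liver by CPM (log2 fold change -0.48, 95% interval -0.96 to 0.01, edgeR adjusted p = 0.5995), while by TPM the groups overlapped. Iigp1 was the steadiest gene of the 40, at 154, 142, 158 and 171 CPM in the Nudt7 livers and 150, 146, 153 and 160 CPM in the GFP livers, with a log2 fold change of 0.04 (95% interval -0.20 to 0.28). Gbp2, Gbp7 and Igtp were at 0.18, -0.11 and 0.26; without Nudt7 replicate 3 Gbp2 was at 0.065 and Gbp7 at 0.042. Igtp overlaps the span of Irgm2 on the same strand and shares 15.9% of its words with other genes; summed with Irgm2 its log2 fold change was 0.06.

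Cxcl10, the chemokine that draws activated T cells, had the widest interval of the set. Its CPM was 1.48, 0.883, 0.823 and 0.456 in Nudt7 replicates 1 to 4 and 1.18, 0.657, 0.920 and 2.96 in GFP replicates 1 to 4, from 7 to 68 counts. GFP replicate 4 alone was above the Nudt7 range. The log2 fold change was -0.73 (95% interval -1.82 to 0.37, edgeR adjusted p = 0.707) and -0.01 without GFP replicate 4. Cxcl10 lies within the span of Art3, on the opposite strand.

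Read liver by liver, the genes did not split cleanly by transgene. The highest of the 8 values fell in a Nudt7 liver for 29 genes and in a GFP liver for 11; over all genes tested, a Nudt7 liver was highest for 55.6%. Nudt7 replicates 3 and 4 held 11 highest values each. For replicate 3 this was 27.5% of the genes, against 28.3% of all genes tested, and for replicate 4 it was 27.5% against 9.58%. The sets differed: replicate 4 was highest for Ddx58, Ifih1, Eif2ak2, Stat2, Irf9, Parp9, Parp14, Dtx3l, Iigp1, Igtp and Irgm1, and replicate 3 for Oasl1, Dhx58, Irf7, Irf1, Isg15, Ifit3, Bst2, Ifi27, Ifi35, Rtp4 and Oas1g. GFP replicate 2 held the lowest value for 13 genes (32.5%, against 7.38% of all genes tested), among them Isg15, Ifit1, Irf7, Usp18, Zbp1, Oasl1 and Dhx58, and only 7 of the 40 were above their own mean there. GFP replicate 4 held the lowest value for 9 genes, yet the highest for Cxcl10, Rsad2, Usp18 and Ifit1. Nudt7 replicate 1 and GFP replicate 1 held the lowest value for 0 genes.

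The median deviation of the 40 genes from their own means, in log2 CPM, was 0.04, -0.04, 0.14 and 0.16 in Nudt7 replicates 1 to 4 and 0.04, -0.16, 0.03 and -0.10 in GFP replicates 1 to 4. Nudt7 replicates 1, 3 and 4 and GFP replicates 1 and 3 lay above 0, and Nudt7 replicate 2 lay below GFP replicates 1 and 3. Summed over the 40 genes, the level was 538 to 570 TPM in the Nudt7 livers and 505 to 631 TPM in the GFP livers, so that the GFP group held both the lowest and the highest sum.

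**Figure D5:**
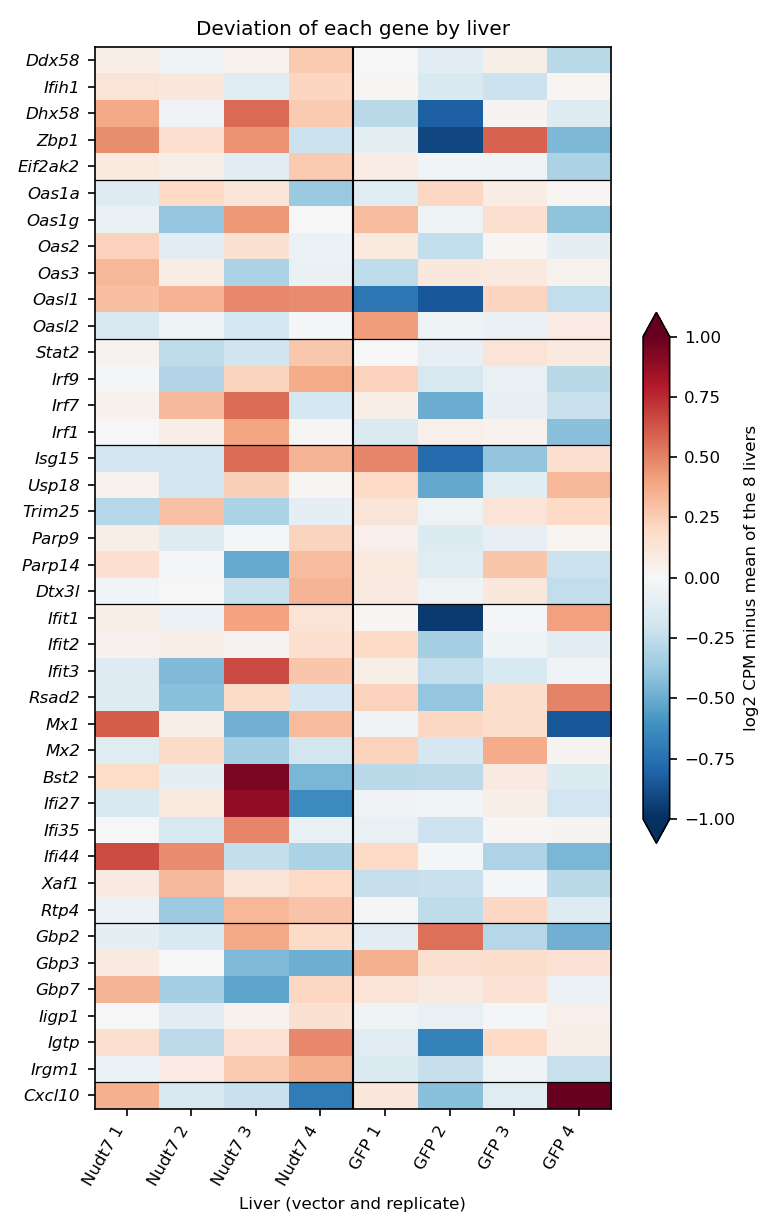
Deviation of each of the 40 genes (rows, grouped by role) from its own mean over the 8 livers (columns) in log2 CPM, red above and blue below; the colour scale ends at 1 in either direction, and Cxcl10 in GFP replicate 4 lies beyond it. The column of GFP replicate 2 is mostly blue, and Nudt7 replicate 3 is red for Bst2 and Ifi27 and blue for Parp14.

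Transcripts of the interferons themselves were next to absent, apart from Ifnk. Of 21 listed interferon genes, 17 had 0 reads in all 8 livers, a count that allows up to 0.0258 CPM over the livers together (3 counts; counting error only). Ifnb1 had 1 read, in a GFP liver, Ifna16 had 4 and Ifnz 17, of which 16 were in Nudt7 livers. These were 6 in Nudt7 replicate 1 and 10 in replicate 4, with 0 in replicates 2 and 3. Ifnk, a type I interferon known from skin, had 144 reads and a mean of 2.99 TPM over the 8 livers. It was the only one tested (log2 fold change -0.32, edgeR adjusted p = 0.819). Of 14 genes for receptors and proximal signalling, 12 were tested, 5 with fold changes above 0 and 7 below, with a median of -0.03 and 0 called. Socs3, a feedback inhibitor of cytokine receptors, had the smallest p there, at 4.11 ± 1.58 CPM in the Nudt7 livers against 6.12 ± 0.826 CPM in the GFP livers (log2 fold change -0.57, edgeR adjusted p = 0.593). The receptor kinase Tyk2 was at -0.24 and the phosphatase Ptpn2 at -0.27. Sensing adaptors and endosomal receptors gave 8 fold changes above 0 and 10 below among 18 tested of 19, with a median of -0.03 and 0 called; Tlr8 was at -0.74, Traf3 at 0.26 and Aim2 at -0.33.

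A list of 71 other interferon-stimulated genes held 60 tested ones, of which 34 were above 0 and 26 below, with a median of 0.02 and 0 called. At an unadjusted p under 0.05 there were 4 above and 1 below, together 8.33%, against 8.28% of all genes tested. In 4 of the 60 (6.67%, against 2.74% of all genes tested) the CPM of every Nudt7 liver was above every GFP liver, and in 0 (against 3%) below; the 4 were Lgals3bp, Samd9l, Parp12 and Ifitm3. Lgals3bp, a secreted glycoprotein, read 60.98, 66.8, 74.4 and 69.6 CPM in the Nudt7 livers and 48.6, 45.6, 55.4 and 52.2 CPM in the GFP livers (log2 fold change 0.43, edgeR adjusted p = 0.277). Samd9l, a restriction factor that halts translation, stood at 9.43 ± 1.17 CPM against 6.58 ± 0.533 CPM (0.52, edgeR adjusted p = 0.342), and Parp12 at 28.5 ± 3.21 CPM against 22.1 ± 1.61 CPM (0.36, edgeR adjusted p = 0.444). Genes of antigen presentation under interferon gamma were above 0 in 14 of 14 cases, against 49.8% of all genes tested. Their median was 0.22, with 0 below an unadjusted p of 0.05. No test of this count was run, and genes that move together in single livers are not independent cases. Whether the count depends on Nudt7 replicate 3, the library whose deviations followed transcript length, was not tested. The smallest p values of the 14 belonged to the immunoproteasome subunit Psmb9 (0.53), the peptide transporter Tap1 (0.19) and B2m, the light chain of MHC class I (0.25). Each had overlapping groups and an edgeR adjusted p of 0.670 to 0.691.

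Markers of the cells that could carry these RNAs were read from the same livers; in bulk tissue, fewer cells of a type and less RNA per cell cannot be told apart. The 5 hepatocyte markers summed to 45931 to 58047 TPM in the Nudt7 livers and 58560 to 67139 TPM in the GFP livers, and the 5 endothelial markers to 109.8 to 135.7 TPM against 136.5 to 153.7 TPM, both sums without overlap between the groups. Of all genes tested, 5.75% had groups without overlap by CPM. That share is for single genes in TMM-scaled values, and no matching share was taken for sums in TPM. Single hepatocyte markers went both ways by counts, 2 above 0 and 3 below, from -0.45 for Cps1 to 0.34 for Ttr, and of the endothelial ones 1 was above 0 and 4 below, with 0 called in either list. The 6 Kupffer cell markers summed to 61.1 to 116 TPM against 62.9 to 114 TPM, with the lowest sum of each group in replicate 4. Stellate cell markers summed to 120.5 to 146.2 TPM against 130.5 to 156.8 TPM. Cholangiocyte markers summed to 7.95 to 10.1 TPM against 5.14 to 9.77 TPM. Of 4 cholangiocyte markers 3 were above 0, with a median of 0.41, and of 4 stellate ones 1 was. In both lists 0 were called. Markers of infiltrating cells had low sums, which do not count the cells. Monocyte markers summed to at most 3.97 TPM, natural killer cell markers to at most 2.50 TPM and B cell markers to at most 2.91 TPM in any liver. T cell markers summed to 4.43 to 8.75 TPM. Neutrophil markers summed to 3.46 to 10.1 TPM in the Nudt7 livers against 3.40 to 7.33 TPM in the GFP livers. Among the 5 markers of plasmacytoid dendritic cells, the main producers of interferon alpha, Siglech read 1.80, 1.68, 1.65 and 1.69 CPM in the Nudt7 livers and 1.04, 1.39, 1.004 and 0.782 CPM in the GFP livers, without overlap (log2 fold change 0.71, edgeR adjusted p = 0.485). Every Nudt7 liver was above every GFP liver in 2.74% of all genes tested. Ccr9 and Tcf4 lay at -0.43 and -0.04, Cox6a2 was at 0 in 6 of 8 livers, and Bst2 belongs to both lists. The part of these markers in the fold changes of the interferon response genes was not tested.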

How the data were processed

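Liver RNA of 8 mice was sequenced after a stranded mRNA kit, per the labels' protocols. Salmon, FastQC and DESeq2 were used by the authors on build GRCm38, per the submitters' processing notes; for their versions, the index and the strand setting nothing is given in the sources used here. Per the file headers, the deposited values are estimated counts and TPM for each of 109282 transcripts, beside effective lengths in bases. Transcripts were named from GENCODE M21 (98.8%; those not named held 0.552% to 1.06% of reads and were left out), summed to 34547 genes, and the estimated counts rounded.

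edgeR 4.0.16 was run in R 4.3.3 with TMM scaling, filterByExpr (minimum count 10), robust quasi-likelihood fits and no covariate, two-sided, adjusted over 13678 genes with a threshold of 0.05. The common biological coefficient of variation was 0.196. CPM use TMM-scaled library sizes, and deviations add 0.5 CPM before the log2. The procedure was tested on simulated data. Alternatives used DESeq2 1.42.0, limma 3.58.1, other scalings, no filter, offsets for effective length and for the trend with transcript length, summed copies, and each liver left out. Replicate numbers follow accession order, and whether livers are separate litters is not stated. The p-values set the difference between the groups against the spread between animals within a group, for these 8 animals. Without molecular identifiers PCR copies cannot be told from separate molecules, so floors cover counting error only.

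The 40 genes and the other lists were chosen with earlier results of these data known. Values in every liver are given for members of the 40 with p under 0.05, for the smallest p and the highest TPM in each role, for those whose groups did not overlap, and for the pair Oas1a and Oas1g. Isg15 and Bst2 were added after their values were seen. So were the values of single livers for Rsad2 and Irf1, and the name of Ifitm3, for which no value is given. From the lists of receptors and signalling, sensing adaptors, other interferon-stimulated genes and antigen presentation, the 3 smallest p values are named. From the interferon list, every gene with reads is named. Cell type markers are given mainly as sums, with only some of them named. Promoter windows came from RefSeq (GRCm38.p6).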

Additional observations from a re-analysis of the deposited data

Results flagged for a closer look

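Over the 40 genes and both groups, 80 sets of 4 livers were checked for a liver far from the others of its group, and 2 had one; chance alone would give about 1 in 20, or 4. Irf1 in Nudt7 replicate 3 was at 19.2 CPM, with the other Nudt7 livers at 14.4 to 15.1 CPM. Gbp3 in GFP replicate 1 was at 3.67 CPM, with the other GFP livers at 3.09 to 3.18 CPM.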

How the results depend on the processing

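The count of called interferon response genes was 0 under every one of 17 alternatives to each gene's fit (scaling, filter, tool, robust estimation, 2 offsets and 8 livers left out), and their lowest adjusted p ran from 0.0887 (limma-voom with sample weights) to 0.8002 (without GFP replicate 2). The median log2 fold change of the 40 genes stayed above 0, from 0.11 to 0.17 over the settings with all 8 livers and from 0.080 (without GFP replicate 2) to 0.22 (without GFP replicate 1) with a liver left out, and 28 to 32 genes were above 0. Calls over all genes tested, 16 in the reported fit, were 27 with no filter on low counts, 153 in DESeq2, 8 in limma-voom, 103 with sample weights, 10 with the effective length offset and 37 with the length trend removed, and 2 to 16 with a liver left out; the cause was not tested. Of the 40 genes, 24 kept their direction in every setting and 16 turned in at least 1, each time without a call. Values that turned were Parp14 at -0.011 in limma-voom; Oas1g at -0.23, Ifi27 at -0.13 and Gbp2 at -0.083 with sample weights; Ddx58 at -0.13, Oas3 at -0.020, Usp18 at -0.046, Ifit2 at -0.020 and Mx2 at 0.16 with the effective length offset; Oas1g at -0.073 and Usp18 at -0.077 with the length trend removed; and Oas1g at -0.079 when summed with Oas1a. With a liver left out the ranges that crossed 0 were -0.11 to 0.15 (Oas3), -0.11 to 0.16 (Parp14), -0.17 to 0.0086 (Stat2), -0.22 to 0.23 (Oas1g), -0.12 to 0.17 (Usp18), -0.15 to 0.40 (Ifi27), -0.010 to 0.22 (Ifi35), -0.26 to 0.042 (Gbp7), -0.23 to 0.027 (Oas1a), -0.061 to 0.15 (Dtx3l), -0.0061 to 0.083 (Iigp1) and -0.012 to 0.46 (Ifit1). Irgm1 and Xaf1 kept their direction, with unadjusted p up to 0.0668 and 0.0995 in these settings, and Oasl1 up to 0.0654. No paired analysis was possible because the labels give no replicate numbers, so that numbers follow accession order and pair no animals.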

Other observations

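For 6 of the 40 genes, under 50% of the TPM was assigned to transcripts annotated as coding, so that a gene's summed level and the level of its protein-coding forms differed: 21.0% for Ddx58, 2.02% for Oas1g, 16.001% for Oasl2, 30.3% for Stat2, 26.2% for Mx1 and 12.0% for Mx2. In Ddx58 a short processed transcript of 435 bases took 49.9% of the TPM but 9.26% of the reads. The main coding transcript took 54.8% of the reads in Ddx58 and 76.0% in Stat2. By coding TPM, Eif2ak2 (8.27) was the highest sensor and Oasl1 (2.55) the highest OAS gene. In Mx1 a form annotated for nonsense-mediated decay took 72.0% of the TPM, and C57BL/6 mice are known to carry a defective Mx1 allele. Among the 4 genes with an unadjusted p under 0.05, the coding transcripts of Oasl1 summed to 3.24 ± 0.341 TPM in the Nudt7 livers and 1.87 ± 0.744 TPM in the GFP livers (SD, n = 4), and the coding transcript of Dhx58 to 4.61 ± 0.910 TPM against 3.27 ± 0.680 TPM. Those of Xaf1 summed to 2.64 ± 0.822 TPM against 2.19 ± 0.813 TPM, and those of Irgm1 to 17.4 ± 2.58 TPM against 15.4 ± 1.16 TPM. The steady gene Iigp1 summed to 77.4 ± 7.49 TPM against 78.9 ± 1.11 TPM. How Salmon shares reads among overlapping transcripts limits these values.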
